A study of Mus musculus with 18 samples.

Results

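Methylation of lysine 9 on histone H3 (H3K9) marks silent chromatin, and in the germline it keeps transposable elements quiet while DNA methylation is low. SETDB1, SUV39H2 and the EHMT1/EHMT2 pair write the mark, the HP1 proteins encoded by Cbx1, Cbx3 and Cbx5 bind it, and TRIM28 is the scaffold through which KRAB zinc finger proteins recruit SETDB1. ZFP57 and ZFP445 are the KRAB zinc finger proteins that hold DNA methylation at imprinted regions after fertilisation. The 10 genes for these proteins were chosen by name from 21887 coding genes on the autosomes, X and Y. No measured value entered the rule, but earlier results of these data were known when it was made. All 10 passed the filter that left 16000 genes for testing, a peak at the gene end in at least 3 libraries.

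The mark measured at these genes was trimethylation of H3 lysine 4 (H3K4me3), which sits at active and poised promoters. It was mapped by CUT&RUN, in which an antibody steers a nuclease to the mark, in prospermatogonia, the arrested fetal male germ cells in which DNA methylation is laid down anew. Cells were taken from mouse embryos at E17.5 (embryonic day) by their Oct4-GFP reporter, and each library was made from 4000 cryopreserved nuclei. The genotypes were Tet1-/- (KO), Tet1HxD/HxD (HxD) and Tet1+/+ (WT), with 3 biological replicates each. TET1 oxidises 5-methylcytosine and also binds chromatin partners without catalysis. The HxD allele changes the iron-binding motif and is known as catalytically inactive. The sources used here do not give how the KO allele was made, and the 9 IgG samples were not analysed here.

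Breadth and highest fold were read from each library's list of called peaks. Breadth is the number of base pairs covered by peaks within 5 kb of the marked gene end, which is the end of the RefSeq gene with more covered sequence over all 9 libraries. The highest fold is the largest enrichment over background that the authors' peak caller gave to any peak in the same window. The lists held 69901 to 80232 peaks in KO, 49624 to 67925 in HxD and 83586 to 128701 in WT. Mean breadth over the tested genes ran from 1679.6 to 2381.9 bp in KO, from 1744.2 to 2188.9 bp in HxD and from 1896.4 to 2333.5 bp in WT. The median highest fold ran from 12.0 to 19.0 in KO, from 11.2 to 14.0 in HxD and from 9.58 to 12.7 in WT, with KO replicate 1 and HxD replicate 3 below WT replicate 3. How the caller's fold was scaled between libraries is not stated in these sources, so fold differences hold on the deposited scale. WT replicate 3 had the longest list, and KO replicate 1 had the lowest mean breadth.

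Of 11 prospermatogonial markers, 9 or 10 had a peak in every library, with Piwil2 at 0 in all 9. Their summed breadth was 14290 to 25403 bp in KO, 12130 to 19153 bp in HxD and 12457 to 18560 bp in WT, and the 10 tested had a median difference from WT of 371 bp in KO and -96 bp in HxD. All 8 Sertoli markers also had peaks in all 9 libraries, with a summed breadth of 16650 to 24003 bp in KO, 14290 to 23913 bp in HxD and 24016 to 27296 bp in WT, so it was lower in every mutant library than in every WT library. Of 10 Leydig and interstitial markers, 7 had a peak in KO, 7 in HxD and 6 to 8 in WT, with summed breadths of 11586 to 23981, 16934 to 22864 and 20863 to 31153 bp. The steroid enzyme genes Cyp17a1 and Hsd3b1 were at 0 in all 9 libraries. Of 10 endothelial and blood markers, 7 to 8 had a peak in KO, 6 to 7 in HxD and 7 to 8 in WT, with summed breadths of 6156 to 9969, 7232 to 9977 and 9851 to 14592 bp, and Ptprc was at 0 throughout. The part of these other cell types in the breadths below was not tested.

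The annotated promoters of 3 of the genes are printed here because their H3K4me3 separated the genotypes furthest or in opposite directions. Each runs from 250 bases before to 50 bases after the annotated start, in RefSeq's annotation of GRCm38.p6, read 5′ to 3′ on the gene's strand, with every CpG in capitals. CpG is the dinucleotide that DNA methylation uses and that TET1 acts on. They are Setdb1 at chr3:95357153-95357452 on the minus strand, Ehmt2 at chr17:34898720-34899019 on the plus strand and Zfp57 at chr17:37002275-37002574 on the plus strand.
Setdb1: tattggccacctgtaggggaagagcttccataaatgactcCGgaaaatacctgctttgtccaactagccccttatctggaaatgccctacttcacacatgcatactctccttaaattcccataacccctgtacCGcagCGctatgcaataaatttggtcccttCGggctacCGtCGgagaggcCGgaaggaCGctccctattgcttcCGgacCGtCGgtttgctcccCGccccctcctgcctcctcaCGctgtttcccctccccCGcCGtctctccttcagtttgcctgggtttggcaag
Ehmt2: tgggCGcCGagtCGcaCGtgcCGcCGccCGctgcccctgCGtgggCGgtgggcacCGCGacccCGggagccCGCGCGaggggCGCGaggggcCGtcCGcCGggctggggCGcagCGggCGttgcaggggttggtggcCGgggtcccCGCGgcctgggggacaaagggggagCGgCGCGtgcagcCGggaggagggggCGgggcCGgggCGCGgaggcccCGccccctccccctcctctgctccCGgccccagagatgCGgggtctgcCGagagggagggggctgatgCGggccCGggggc
Zfp57: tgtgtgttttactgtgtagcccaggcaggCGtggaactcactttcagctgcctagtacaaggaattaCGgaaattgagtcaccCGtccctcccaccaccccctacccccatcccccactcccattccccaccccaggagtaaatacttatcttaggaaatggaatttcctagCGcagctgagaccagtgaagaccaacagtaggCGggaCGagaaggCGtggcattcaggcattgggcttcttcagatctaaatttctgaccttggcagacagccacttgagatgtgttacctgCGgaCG
The Setdb1 window held 15 CpGs, the Ehmt2 window 40 and the Zfp57 window 9, beside a median of 13 and quartiles of 4 and 24 over 21263 promoter windows of coding genes. Of the other members, Ehmt1 and Cbx3 had 34 each, Suv39h2 33, Cbx5 29, Trim28 23, Cbx1 22 and Zfp445 10. All 10 members matched at least 1 RefSeq promoter, and where a gene had several starts the one with most covered sequence within 1 kb over all 9 libraries was taken. The letters TGCCGC, the site that ZFP57 reads when methylated, were searched on both strands and occurred once in the Ehmt2 window and once in the Trim28 window, against 14.1% of all windows with at least 1.

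Setdb1 showed the plainest difference. A peak lay over its start in every mutant library and in only 1 of the 3 WT libraries. Its breadth was 976, 1033 and 1518 bp in KO, 1014, 921 and 864 bp in HxD, and 0, 0 and 594 bp in WT. The 3 KO and 3 HxD values all lay above the highest WT value. In WT replicates 1 and 2 the nearest peak was 15841 and 16211 bp away from the start. The WT library with a Setdb1 peak was replicate 3, the one with the longest list. Means were 1176 ± 298 bp in KO, 933 ± 75.7 bp in HxD and 198 ± 343 bp in WT (SD, n = 3 each). KO replicates 2 and 3 each had a separate peak beyond 2 kb, of 334 and 365 bp. Within 2 kb KO was at 976, 699 and 1153 bp with a mean of 943 ± 229 bp, while HxD and WT were unchanged.

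The difference for Setdb1 was 978 ± 256 bp (SE) between KO and WT, with an adjusted p of 0.142 in limma over 16000 genes. Between HxD and WT it was 735 ± 256 bp, with an adjusted p of 0.314. Neither passed the threshold of 0.05, and the unadjusted values were 0.00177 and 0.012 in limma. When each library's breadths were centred on its mean, the KO difference was 942 bp and passed, with an adjusted p of 0.0475 in limma. Centring also raised the calls over all genes to 183 broader and 281 narrower in KO, against 0 and 1 without it. Over the alternatives the adjusted p for KO ran from 0.0475 to 0.345. Within 2 kb the KO difference from WT was 745 bp, close to that of HxD, with an adjusted p of 0.193 in limma. Setdb1 met the filter of 3 libraries through its mutant libraries, and its WT libraries alone would not have met it. Since nuclei were pooled, more nuclei with the mark and more of the mark per nucleus cannot be told apart, here and for the other genes.

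Across the 300 bases printed for Setdb1, peaks covered 300, 158 and 300 bases in KO, 300, 297 and 63 in HxD, and 0, 0 and 172 in WT. The strongest summit lay 65 to 450 bp downstream of the start in KO, 450 to 456 bp downstream in HxD and 55 bp upstream in the single WT library. The highest fold was 16.5, 10.0 and 20.1 in KO, 8.48, 6.53 and 13.0 in HxD, and 8.37 in WT replicate 3. The WT peak was thus of a fold that lay within the HxD range and under every KO value. A peak in all 6 mutant libraries with a peak in at most 1 WT library was shown by 17 of 16000 tested genes (0.106%). That share carries no test, since the layout was that of Setdb1 itself. The reverse, a peak in every WT library and in at most 1 mutant library, was shown by 102 genes (0.637%), none of them among the 10.

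**Figure D1:**
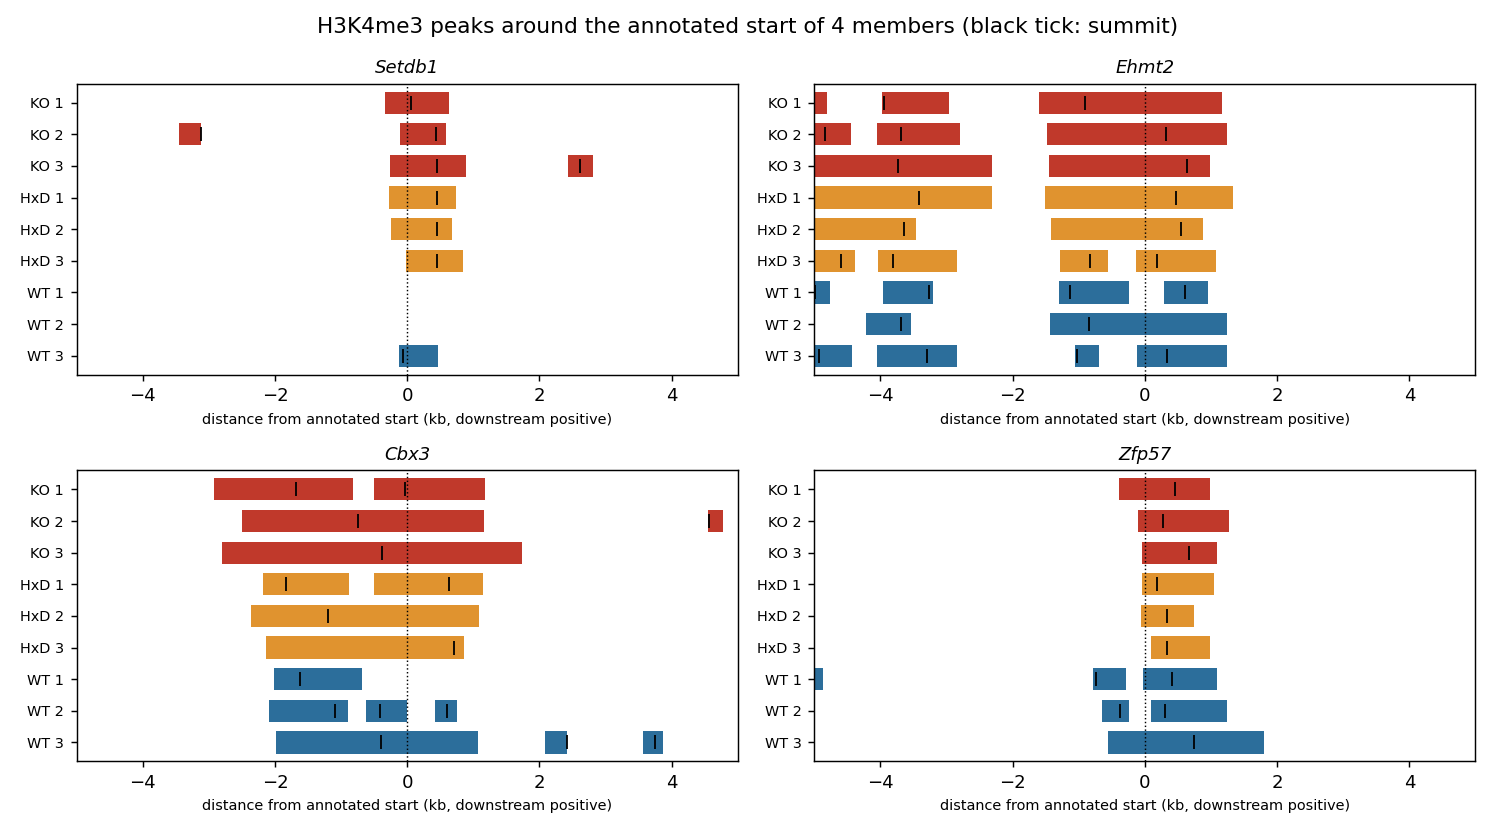
Called H3K4me3 peaks (bars) and their summits (black ticks) within 5 kb of the annotated start of Setdb1, Ehmt2, Cbx3 and Zfp57, with 1 row per library, KO above HxD above WT, and distance in kb with downstream positive. The Setdb1 start is bare in WT replicates 1 and 2, and the Zfp57 peaks together cover less sequence in each of the 6 mutant libraries than in any WT library.

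Ehmt2 encodes G9a, which adds the lower degrees of H3K9 methylation in a complex with the EHMT1 product GLP. It had the broadest H3K4me3 of the 10 genes, at the 97.3rd percentile of tested genes by mean breadth. Its breadth was 4495, 4735 and 5602 bp in KO, 6037, 4072 and 3784 bp in HxD, and 2871, 3363 and 3771 bp in WT. As with Setdb1, every mutant library lay above every WT library, though HxD replicate 3 only just passed WT replicate 3. The difference was 1609 ± 622 bp for KO and 1296 ± 622 bp for HxD against WT, with adjusted p of 0.264 and 0.476 in limma. Both missed the threshold. Without HxD replicate 1, the broadest library at this gene, the HxD difference was 593 bp.

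The window of Ehmt2 also takes in Zbtb12, a zinc finger gene on the same strand whose start lies 3904 bp upstream of the Ehmt2 end. Within 2 kb of the Ehmt2 end the breadth was 2769, 2711 and 2640 bp in KO, 3037, 2301 and 1952 bp in HxD, and 1725, 2679 and 1716 bp in WT. There the HxD and WT values overlapped, and KO overlapped WT through WT replicate 2. The KO difference within 2 kb was 667 bp, with an adjusted p of 0.404 in limma. Outside 2 kb the breadth averaged 2237 ± 645 bp in KO, 2201 ± 693 bp in HxD and 1295 ± 698 bp in WT (SD, n = 3 each), so in both mutants more of the difference in means lay beyond 2 kb than within it.

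Ehmt1 encodes GLP, the partner of G9a. Its breadth was 1982, 3042 and 3062 bp in KO, 3311, 2807 and 2302 bp in HxD, and 1642, 2153 and 3347 bp in WT, with overlap between all groups. The difference from WT was 315 ± 482 bp for KO and 426 ± 482 bp for HxD, with adjusted p of 0.805 and 0.806 in limma. Its highest fold was 20.8, 29.2 and 31.1 in KO, 24.6, 21.2 and 10.9 in HxD, and 10.5, 9.12 and 12.0 in WT. Every KO value was above every WT value, as in 25.5% of genes tested for fold, while HxD replicate 3 lay inside the WT range. The log2 difference was 1.35 ± 0.40 between KO and WT, with an adjusted p of 0.0794 in limma over the 14022 genes with a peak in all 9 libraries. Without KO replicate 1 it was 1.53 and passed, with an adjusted p of 0.0383 in limma. In that fit 1263 genes were called higher in KO, against 36 with all 9 libraries. Over the alternatives the adjusted p ran from 0.0383 to 0.322.

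Suv39h2, whose product trimethylates H3K9 at pericentromeric repeats and is known for its expression in testis, had a breadth of 1800, 2573 and 3031 bp in KO, 3214, 2591 and 1853 bp in HxD, and 1757, 1371 and 3051 bp in WT. The groups overlapped, and the difference from WT was 408 ± 493 bp for KO and 493 ± 493 bp for HxD, with adjusted p of 0.742 and 0.771 in limma. With lists of equal length it was 1451 bp for KO and 1536 bp for HxD. Its highest fold was 15.3, 18.5 and 25.2 in KO, 15.4, 13.1 and 8.55 in HxD, and 7.14, 5.24 and 10.9 in WT. Every KO library was above every WT library in fold, as in 25.5% of genes tested for fold. The log2 difference was 1.38 ± 0.48, with an adjusted p of 0.104 in limma. The marked end of Suv39h2 lies 775 bp from the far end of Dclre1c, a DNA repair nuclease gene on the opposite strand.

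Trim28, the scaffold that joins KRAB zinc finger proteins to SETDB1, had a breadth of 2867, 3044 and 4001 bp in KO, 2910, 3390 and 2425 bp in HxD, and 1687, 3014 and 2947 bp in WT. The groups overlapped. Its highest fold was 9.20, 18.6 and 29.2 in KO, 3.90, 15.8 and 5.17 in HxD, and 13.1, 9.83 and 18.6 in WT. HxD held the lowest fold values of the 3 genotypes but for replicate 2. The log2 difference was 0.36 ± 0.55 between KO and WT and -0.97 ± 0.55 between HxD and WT, with adjusted p of 0.709 and 0.71 in limma. Between KO and HxD it was 1.33 ± 0.55, with an unadjusted p of 0.0228 and an adjusted p of 0.505 in limma. The marked end of Trim28 lies inside Gm31649, a predicted gene on the opposite strand, so peaks of the pair cannot be told apart.

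**Figure D2:**
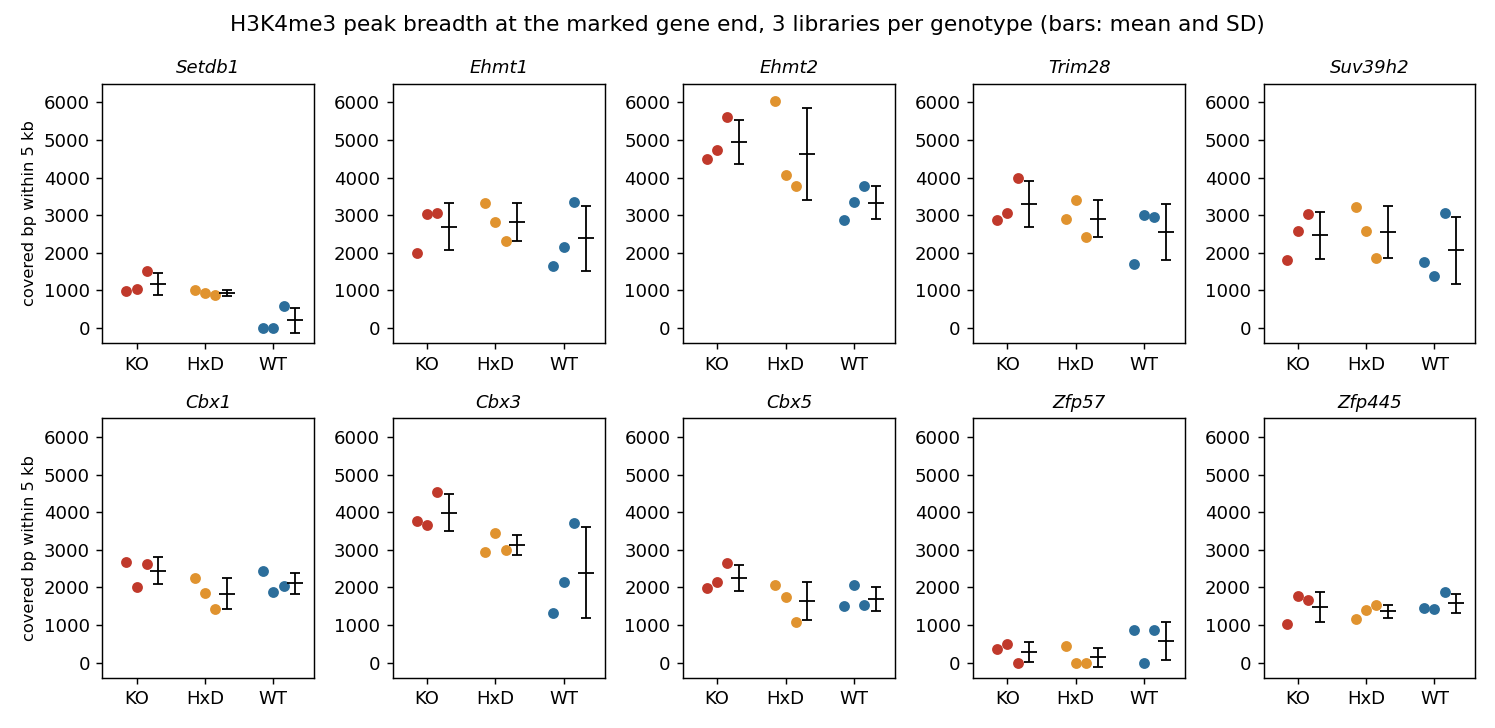
H3K4me3 breadth in bp within 5 kb of the marked end for the 10 genes, with 1 point per library and the mean and SD of 3 libraries beside each genotype, KO, HxD and WT from left to right. Setdb1 and Ehmt2 are the genes in which all 6 mutant points lie above all 3 WT points.

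Among the HP1 genes, Cbx3 (HP1 gamma) stood out. Its breadth was 3777, 3656 and 4547 bp in KO, 2950, 3448 and 3000 bp in HxD, and 1320, 2148 and 3707 bp in WT. KO exceeded every HxD library, but WT replicate 3 lay inside the KO range. The KO difference from WT was 1602 ± 539 bp, with an unadjusted p of 0.00988 and an adjusted p of 0.21 in limma. Without WT replicate 1 it was 1066 bp, with an adjusted p of 0.519, and over the alternatives the adjusted p ran from 0.0603 to 0.519. The HxD difference from WT was 741 ± 539 bp, with an adjusted p of 0.664, and it was 205 bp without WT replicate 1 and 1399 bp without WT replicate 3. The KO difference from HxD was 861 ± 539 bp, with an adjusted p of 1.0 in limma.

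Cbx3 shares its promoter with Hnrnpa2b1, an RNA-binding protein gene that starts on the opposite strand with its end 106 bp away, so the breadth belongs to both. The part on the Cbx3 side of the marked end averaged 1823 ± 330 bp in KO, 1492 ± 146 bp in HxD and 994 ± 1105 bp in WT. The part on the Hnrnpa2b1 side averaged 2170 ± 158 bp in KO, 1640 ± 280 bp in HxD and 1397 ± 110 bp in WT (SD, n = 3 each). The highest fold at Cbx3 was 14.2, 11.2 and 14.7 in KO, 18.1, 9.18 and 13.6 in HxD, and 7.72, 9.47 and 9.12 in WT. KO lay above WT in fold without overlap, as in 25.5% of genes tested for fold. The log2 difference was 0.60 ± 0.47 with an adjusted p of 0.433 in limma, close to the median of all genes.

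Cbx1 (HP1 beta) had a breadth of 2669, 2024 and 2632 bp in KO, 2243, 1845 and 1430 bp in HxD, and 2428, 1872 and 2031 bp in WT. Cbx5 (HP1 alpha) had 1978, 2133 and 2645 bp in KO, 2079, 1745 and 1089 bp in HxD, and 1512, 2055 and 1522 bp in WT. In both genes the HxD mean was the lowest and the KO mean the highest, with overlap between all groups. The difference between KO and WT was 331 ± 346 bp for Cbx1 and 556 ± 346 bp for Cbx5, with adjusted p of 0.696 and 0.486 in limma. Between HxD and WT it was -271 ± 346 bp and -59 ± 346 bp, with adjusted p of 0.835 and 0.971. With lists of equal length the KO differences were 1096 and 1184 bp, with adjusted p of 0.117 and 0.208, and the HxD differences turned to 293 and 570 bp. Cbx5 lies head to head with Hnrnpa1, another RNA-binding protein gene, whose end is 39 bp away.

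At the annotated start of Zfp57, at position 37002525 of chromosome 17, a peak was called in all 9 libraries. The breadth of all peaks in the window was lower in both mutants than in WT. The breadth there was 1369, 1375 and 1146 bp in KO, 1087, 791 and 884 bp in HxD, and 1751, 1544 and 2362 bp in WT. Every mutant library lay below every WT library. Of 12593 genes with an annotated start, 8.07% were narrower in KO than in WT without overlap and 12.1% in HxD. Every KO library lay above every HxD library, as in 7.33% of these genes. The peak nearest the start alone covered 1125, 1143 and 2362 bp in WT, and in both mutants it was the only peak. By that peak KO overlapped WT, while HxD lay below it. WT replicates 1 and 2 reached their totals through separate upstream peaks, the nearest of 501 and 401 bp. The difference from WT was -589 ± 283 bp for KO and -965 ± 283 bp for HxD, with unadjusted p of 0.0558 and 0.0041 and adjusted p of 0.369 and 0.284 in limma over 12593 genes with an annotated start. The highest fold at the start overlapped between genotypes, at 5.70, 16.03 and 7.96 in KO, 15.0, 9.41 and 10.7 in HxD, and 19.8, 4.89 and 17.8 in WT.

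The marked end of Zfp57, the one the comparison over all genes uses, was its 3′ end, 8204 bp from that start and 11 bp from the 3′ end of Mog, a myelin protein gene. Breadth there was 367, 507 and 0 bp in KO, 439, 0 and 0 bp in HxD, and 870, 0 and 869 bp in WT. Libraries of each genotype were at 0, and the difference from WT was -288 ± 268 bp for KO and -433 ± 268 bp for HxD, with adjusted p of 0.652 and 0.593 in limma. With 1 library left out the KO value ran from -578 to -143 bp and the HxD value from -723 to -288 bp, both furthest from 0 without WT replicate 2.

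Zfp445 had peaks at both of its candidate ends in all 9 libraries. At the marked end, shared with the zinc finger gene Zkscan7 within 33 bp, breadth was 1024, 1773 and 1662 bp in KO, 1172, 1396 and 1527 bp in HxD, and 1450, 1420 and 1875 bp in WT. At the annotated start, 20845 bp away, it was 853, 1771 and 2070 bp in KO, 1779, 1750 and 1152 bp in HxD, and 2060, 2173 and 1804 bp in WT. At the annotated start every HxD library lay below every WT library, while KO overlapped WT. The differences from WT were -95 ± 298 bp for KO and -217 ± 298 bp for HxD at the marked end and -448 ± 348 bp and -452 ± 348 bp at the annotated start, with adjusted p of 0.916, 0.852, 0.583 and 0.725 in limma. The highest fold at the marked end was 18.1, 24.4 and 20.2 in KO, 11.4, 16.997 and 14.1 in HxD, and 4.85, 11.3 and 17.1 in WT. Every KO value was above every WT value (25.5% of genes tested for fold) and every HxD value (11.0%). Its log2 difference between KO and WT was 1.08 ± 0.46, with an adjusted p of 0.166 in limma.

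**Figure D3:**
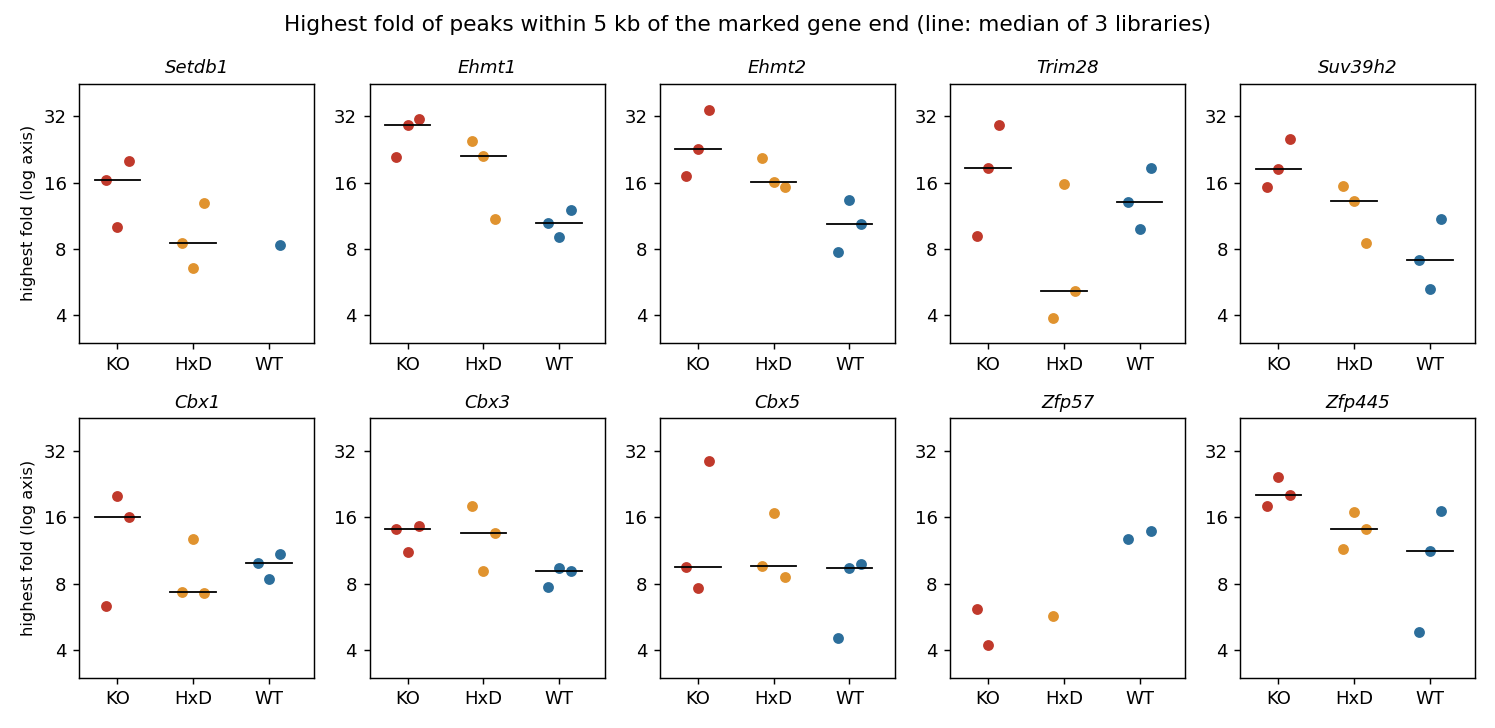
Highest fold over background of the peaks within 5 kb of the marked end for the 10 genes on a log axis, with 1 point per library and a line at the median where all 3 libraries had a peak, KO, HxD and WT from left to right. KO points lie above all WT points for Ehmt1, Ehmt2, Suv39h2, Cbx3 and Zfp445, a layout of 25.5% of genes tested for fold.

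None of the 10 genes was called broader or narrower between KO and WT by limma, where 0.0% of 16000 tested genes were called broader and 0.00625%, a single gene, narrower. The unadjusted p was under 0.05 for 3 members, Setdb1, Cbx3 and Ehmt2, all broader in KO, against 1082 broader and 1192 narrower genes among all tested. Of the 10 members, 8 had a difference above 0 and 2 below, with a median of 482 bp, beside 53.3% above 0 and a median of 45 bp for all tested genes. Setdb1 and Ehmt2 were broader in KO without overlap, a layout found in 8.49% of tested genes, and no member was narrower without overlap, found in 9.07%. At the annotated starts the members broader in KO without overlap were Setdb1, Ehmt2 and Cbx3 (9.17% of 12593 genes), and Zfp57 was narrower (8.07%).

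Between HxD and WT, 0 of the 10 were called, and 0.0% of tested genes were called broader and 0.0% narrower by limma. The unadjusted p was under 0.05 for Setdb1 alone among the members, against 280 broader and 1446 narrower genes. The members split 6 above 0 and 4 below, with a median of 393 bp, beside 38.9% above 0 and a median of -125 bp for all tested genes. Setdb1 and Ehmt2 were broader in HxD without overlap, found in 3.62% of genes, and no member was narrower, found in 13.3%. At the annotated starts Setdb1 and Ehmt2 were broader (3.93%), and Zfp57 and Zfp445 were narrower (12.1%). Every mutant library was broader than every WT library in 343 of 16000 tested genes (2.14%), Setdb1 and Ehmt2 among them, and narrower in 937 (5.86%). The comparisons of KO and of HxD with WT share the 3 WT libraries, so a low WT library moves both.

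Between KO and HxD none of the 10 was called, with 0.0% of genes broader and 0.0% narrower by limma and adjusted p of 1.0 for each member. No member had an unadjusted p under 0.05 for breadth, against 430 broader and 35 narrower genes. The differences of the members ran from -111 bp for Ehmt1 to 861 bp for Cbx3. Cbx3 was broader in KO without overlap, a layout found in 7.19% of genes. The median of the members was 278 bp, beside 167 bp over all genes, of which 71.8% were above 0.

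**Figure D4:**
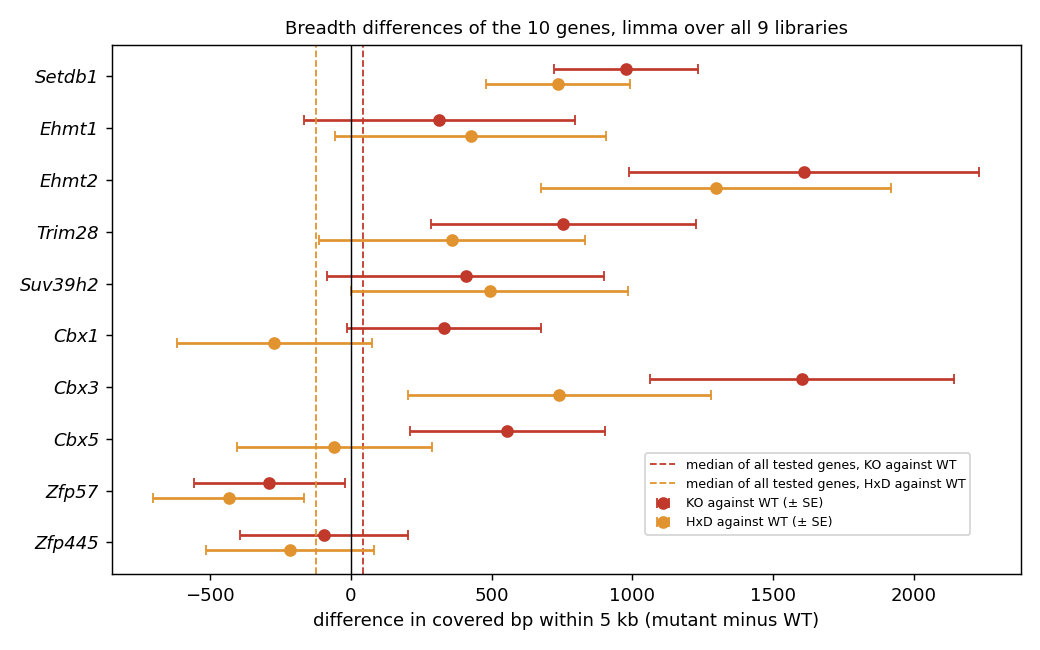
Difference in breadth in bp from WT for the 10 genes in KO (red) and HxD (orange), as limma estimates with SE over all 9 libraries, with dashed lines at the medians of all tested genes (45 and -125 bp). The estimates for Setdb1, Ehmt2 and Cbx3 lie furthest right in both genotypes, and those for Zfp57 and Zfp445 lie left of 0.

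The highest fold could be compared for the 8 members with a peak in all 9 libraries, which leaves out Setdb1 and Zfp57. None was called, against 0.257% of 14022 genes higher and 0.0% lower in KO than in WT, 0.0% and 0.0% in HxD against WT, and 0.0% and 0.0% in KO against HxD. All 8 were higher in KO than in WT, with a median log2 difference of 0.93, but so were 81.8% of all genes, with a median of 0.56. Those with an unadjusted p under 0.05 in limma were Ehmt1, Suv39h2, Ehmt2 and Zfp445, against 3195 higher and 98 lower genes among all 14022. Relative to the mean shift of each library, the differences for Suv39h2, Ehmt1 and Ehmt2 were 0.85, 0.82 and 0.69, and those for Trim28 and Cbx1 turned negative at -0.17 and -0.14. KO was above WT without overlap in 5 of the 8, a layout of 25.5% of genes, and below it in none (1.58% of genes).

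In HxD against WT the members' differences in fold had a median of 0.58, beside 0.24 for all genes. They were below 0 for Trim28 and Cbx1. The fold of Ehmt2 was 17.2, 22.8 and 34.3 in KO, 20.6, 16.03 and 15.3 in HxD, and 7.76, 13.3 and 10.4 in WT, which made it the member that was higher in HxD without overlap (13.2% of genes, with 2.85% lower). Its log2 difference from WT was 1.22 ± 0.41 for KO and 0.75 ± 0.41 for HxD, with adjusted p of 0.0992 and 0.708 in limma. Without KO replicate 1 the KO difference was 1.45 with an adjusted p of 0.0399 in limma, in the fit that called 1263 genes higher. Over the alternatives the adjusted p for KO ran from 0.0399 to 0.42. In WT replicates 2 and 3 the highest fold came from peaks beyond 2 kb, on the Zbtb12 side of the Ehmt2 end. Within 2 kb the highest fold of Ehmt2 was 7.76, 10.25 and 9.68 in WT and unchanged in every mutant library, still without overlap. The log2 difference there was 1.38 for KO and 0.91 for HxD, with adjusted p of 0.0909 and 0.661 in limma. Zfp445 was higher in KO than in HxD without overlap, as were 11.0% of genes.

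At the marked ends in WT the order of mean breadth was Ehmt2 at 3335 ± 451 bp, Trim28 at 2549 ± 748 bp, Cbx3 at 2392 ± 1212 bp, Ehmt1 at 2381 ± 875 bp, Cbx1 at 2110 ± 286 bp, Suv39h2 at 2060 ± 880 bp, Cbx5 at 1696 ± 311 bp, Zfp445 at 1582 ± 254 bp, Zfp57 at 580 ± 502 bp and Setdb1 at 198 ± 343 bp. Neighbours in that order overlapped in their libraries except Zfp445 and Zfp57. The place of Zfp57 is that of its 3′ end, and at its annotated start it averaged 1297 ± 130.5 bp in KO, 921 ± 151 bp in HxD and 1886 ± 425 bp in WT (SD, n = 3 each). In WT that start was thus broader on average than the marked ends of Cbx5, Zfp445 and Setdb1, and in both mutants it overlapped Setdb1. By mean breadth at the marked ends over all libraries Setdb1 was at the 7.44th percentile of tested genes and Zfp57 at the 2.30th, while Cbx3 was at the 89.8th.

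The genes whose breadth followed that of Setdb1 most closely over the 9 libraries were Nectin3 (Pearson r of 0.971), Phrf1 and Gm51460 (0.969 each, with identical values from a shared peak), Zc3h6 (0.969) and Med13l (0.968). Med13l, a Mediator kinase module gene, covered 2596, 2929 and 3188 bp in KO, 3022, 2707 and 2539 bp in HxD, and 1458, 1090 and 2161 bp in WT. Among the members the closest were Cbx3 at 0.881 and Ehmt2 at 0.827, and Zfp57 was at -0.347. Within each library all genes share 1 depth and peak threshold, and the lists differed in length between libraries. The r values describe these 9 libraries and carry no test.

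Beyond the 10, 32 other genes of H3K9 methylation and heterochromatin were listed, and 29 were tested. The untested were Tasor, Cdyl and Kdm4c. None of the 29 was called for breadth in either comparison with WT, and the unadjusted p was under 0.05 for 2, both broader in KO. In KO 24 lay above 0 and 5 below, with a median of 332 bp, beside 53.3% above 0 and a median of 45 bp over all tested genes. In HxD 18 lay above and 11 below, with a median of 125 bp, beside 38.9% above 0 and a median of -125 bp over all. Broader in KO than in WT without overlap were Suv39h1, Mphosph8, Dppa3 and Kdm4d, and narrower was Uhrf1, beside 8.49% and 9.07% of all tested genes. In HxD Zfp809 was broader without overlap, and Resf1 and Wiz were narrower, beside 3.62% and 13.3%, all chosen for naming after their values were seen.

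Suv39h1, the X-linked relative of Suv39h2, had a breadth of 1774, 1779 and 2109 bp in KO, 1475, 1743 and 445 bp in HxD, and 293, 0 and 1545 bp in WT. KO lay above WT throughout, while HxD overlapped WT through HxD replicate 3. Its differences from WT were 1275 ± 409 bp in KO and 608 ± 409 bp in HxD, with adjusted p of 0.195 and 0.626 in limma. With lists of equal length the KO difference was 1790 bp and passed, with an adjusted p of 0.0488 in limma. In that setting 364 genes were called broader in KO and 35 narrower, against 0 and 1 with the full lists. Dppa3, whose product (STELLA) shields DNA methylation at imprinted regions and H3K9me2-marked chromatin in the zygote, covered 3852, 4185 and 4924 bp in KO, 3188, 3397 and 2015 bp in HxD, and 2785, 3191 and 3055 bp in WT. KO alone stood above WT, by 1310 ± 470 bp with an adjusted p of 0.23 in limma, and the difference in HxD was -144 ± 470 bp with an adjusted p of 0.95. With lists of equal length the differences were 2868 bp in KO, with an adjusted p of 0.0543, and 1414 bp in HxD, so the direction in HxD turned.

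The other genes at the ends of the list had smaller differences. Kdm4d, an H3K9 demethylase gene, differed by 664 ± 344 bp in KO, with an adjusted p of 0.397 in limma. Zfp809, a KRAB zinc finger gene that silences retroviruses, and Zfp568, one that acts on placental Igf2 transcription, differed by 615 ± 363 bp and 395 ± 318 bp in HxD, with adjusted p of 0.575 and 0.702. At the low end, Uhrf1, which brings DNMT1 to replicating DNA, differed by -345 ± 375 bp in KO and -401 ± 375 bp in HxD, with adjusted p of 0.712 and 0.753. Wiz, a zinc finger partner of the EHMT pair, differed by -263 ± 363 bp in KO and -507 ± 363 bp in HxD, with adjusted p of 0.778 and 0.658. Chaf1b, of the CAF-1 histone chaperone, differed by -120 ± 318 bp in KO, and Smchd1, of X inactivation, by -193 ± 361 bp in HxD, with adjusted p of 0.9 and 0.893.

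In highest fold, 26 of the 32 had a peak in all 9 libraries, and 25 of them were higher in KO than in WT, with a median log2 difference of 0.83, beside 81.8% of all genes with a median of 0.56. In HxD 18 of the 26 were higher than in WT, with a median of 0.18, beside 68.1% of all genes with a median of 0.24. A single one of the 26 passed the test in KO, where 0.257% of all 14022 genes were called higher. It was Setdb2, a gene related to Setdb1, named here after its values were seen. Its highest fold rose to 25.9, 48.8 and 44.1 in KO, against 10.5, 11.3 and 12.4 in WT, and was 20.9, 28.6 and 15.9 in HxD. The log2 difference was 1.75 ± 0.35 in KO and 0.90 ± 0.35 in HxD, with adjusted p of 0.0338 and 0.668 in limma. The KO call was lost when each library was centred on its mean, where the difference was 1.22 with an adjusted p of 0.151. It was also lost without KO replicate 2, KO replicate 3, WT replicate 1 or WT replicate 2, where the difference was 1.57, 1.65, 1.69 and 1.74, with adjusted p between 0.109 and 0.177 in limma. The breadth of Setdb2 differed by 380 ± 357 bp in KO, with an adjusted p of 0.657.

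**Figure D5:**
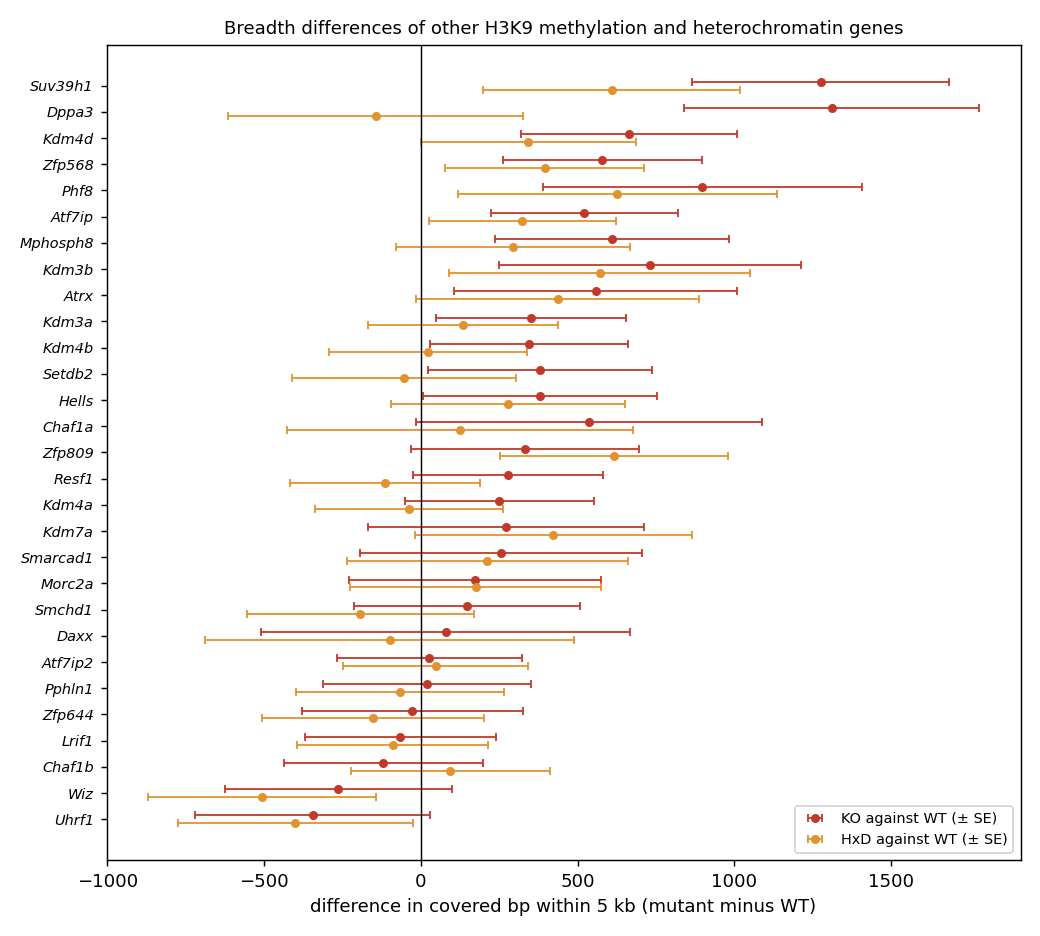
Difference in breadth in bp from WT for the 29 other genes of H3K9 methylation and heterochromatin in KO (red) and HxD (orange), as limma estimates with SE, sorted by the KO statistic. Suv39h1 and Dppa3 have the largest KO estimates, at 1275 and 1310 bp, and Uhrf1 the lowest at -345 bp.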

How the data were processed

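H3K4me3 CUT&RUN was analysed in 9 libraries of mouse prospermatogonia, 3 each of KO, HxD and WT, grouped by their labels, which give 1 batch. The submitters' processing notes name build mm10 and, in no stated order, MACS2 2.1.0, Bowtie2 2.5.0, deepTools 3.5.1, SAMtools 1.16.1, Trim Galore and bedtools 2.27.1. Each library has its own narrow peak list deposited by the authors, which makes the calls per sample. Each deposited peak has a score, a fold enrichment (linear ratio), −log10 p and −log10 q values, and a summit offset. The smallest −log10 q was 2.0 to 2.02. No read counts were used, so depth is unknown beyond list length. The sources used here do not say whether the calls used IgG as control.

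From these lists, breadth and log2 highest fold were computed per gene of RefSeq GRCm38.p6 (the same assembly) in a window of 5 kb on either side of the marked gene end. The end is within 1 kb of an annotated start for 83.4% of 12729 tested genes that have one. Neither value was rescaled between libraries. limma 3.58.1 in R 4.3.3 fitted all 9 libraries (eBayes with trend, Benjamini-Hochberg over all tested genes, threshold 0.05). It was also tested on simulated data whose changes in breadth were larger than any difference of a member, so smaller changes were not covered. Highest fold was compared for genes with a peak in all 9 libraries. Other steps used Python 3.11.15, numpy 2.4.6, pandas 2.3.3 and matplotlib 3.10.9. No pair of lists shared more than 6 identical peaks. Replicate numbers were not used to pair the libraries in this fit.

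The members, the lists and the rule for naming genes were chosen with earlier results of these data known. The rule named all 10 members, the 3 highest and 3 lowest other pathway genes by limma statistic in each comparison with WT, genes with an end within 1 kb of a member's, and the 5 genes most like Setdb1. Alternatives were peaks with −log10 q of at least 5, lists cut to the strongest 49624 peaks, a 2 kb window, centring, no filter, a fit of the compared groups only, a replicate block, the annotated start, and leaving out each library.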

Additional observations from a re-analysis of the deposited data

How the results depend on the processing

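The differences of the named genes were recomputed 855 times, of which 823 kept their direction and their side of the threshold, 23 reversed, 4 gained a call and 5, all of Setdb2 in highest fold, lost it. No member was called broader or narrower in KO than in WT under any alternative except 1, Setdb1, after centring. Without KO replicate 1, 2 members (Ehmt1 and Ehmt2) were called higher in fold in KO, in a fit that called 1263 genes. Leaving out 1 library at a time gave 0 to 2 members.

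Counts over all genes moved more. Genes narrower in KO than in WT numbered 1, against 0 with stricter peaks, a 2 kb window, only the groups compared or the replicate block, 4 at annotated starts, 35 with lists of equal length, 110 without the filter, 281 after centring, and 0 to 2 with 1 library left out. Genes broader in KO numbered 0, against 1 at annotated starts, 8 without the filter, 183 after centring, 364 with lists of equal length, and 0 to 3 with 1 library left out. Genes narrower in HxD than in WT numbered 0, against 43 after centring, 100 without the filter and 0 to 22 with 1 library left out (22 without KO replicate 1). Genes broader in HxD numbered 0, against 2 with lists of equal length, 2 without the filter, 12 after centring and 0 to 3 with 1 library left out. Genes higher in fold in KO than in WT numbered 36, against 0 after centring, 16 with lists of equal length, 62 with stricter peaks, 78 at annotated starts, 100 with only the groups compared, 101 with the replicate block, and 0 to 1263 with 1 library left out (1263 without KO replicate 1). The block used replicate numbers, and libraries of the same number correlated between -0.236 and 0.08 in 9 pairs. With 3 libraries per genotype, these values cannot tell whether a number stands for a shared origin. The block changed no call of a member.

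Reversals were in differences that passed no test. With lists of equal length, Zfp445 was at 388 bp in KO and 266.7 bp in HxD, Cbx1 at 293 bp and Cbx5 at 569.7 bp in HxD, Chaf1b at 428.7 bp and Wiz at 316 bp in KO, and Wiz at 209.7 bp and Dppa3 at 1414.3 bp in HxD. With stricter peaks Cbx5 was at 569.7 bp in HxD. After centring, Cbx5 was at 87.6 bp and Dppa3 at 2.6 bp in HxD, and the log2 fold of Trim28 and Cbx1 in KO was -0.173 and -0.139. With 1 library left out, the KO difference ran from -54.7 to 797.8 bp for Ehmt1, from -238.7 to 135.8 bp for Zfp445 and from -303.3 to 117.7 bp for Chaf1b, the HxD difference from -72.2 to 600.7 bp for Trim28, from -279.3 to 215.7 bp for Cbx5 and from -408.8 to 282.2 bp for Dppa3, and the log2 fold of Trim28 in KO from -0.029 to 0.804. The causes were not tested. Peak lists without counts limit the precision to whether and how far a peak was called.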
